A study of Homo sapiens with 8 samples.

Results

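KG1A cells kept in dG for a stretch that the labels do not state were compared with KG1A cells kept in vehicle, gene by gene, from 4 RNA-seq libraries. KG1A is an established human acute myeloid leukaemia line of immature, CD34-positive cells. Both groups were the same line, grown in RPMI 1640 medium with 10% dialyzed fetal bovine serum and antibiotics: 2 libraries came from cells given PBS, the vehicle, and 2 from cells given 10 mM dG. The labels write dG without spelling it out. It is the usual abbreviation of deoxyguanosine, a purine nucleoside that cells either phosphorylate by salvage, towards dGTP, or split to guanine. The labels number the libraries of a group 1 and 2 and do not say whether they came from separate cultures, so the p-values measure the spread between these libraries, which may be technical.

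Genes entered the comparison if they reached 1 CPM (counts scaled to the same total in every library) in at least 2 of the 4 libraries. This kept 14010 of 57992 genes in the count table, and those held 99.8% of the KG1A counts. Of the genes kept, 484 were at 1 CPM in exactly 2 libraries, and 387 genes that reached it in 1 library only were left out. 269 genes passed through the dG libraries alone and 124 through the PBS libraries alone, and such genes had to differ between the groups. The libraries held 22659210 and 28524002 counts in PBS and 28794115 and 25361768 counts in dG. Replicates agreed closely, with a correlation across genes of log2 CPM of 0.997 within each group and of at least 0.975 across groups. The mitochondrially encoded transcripts took 9.12% and 9.19% of the counts in PBS and 8.01% and 8.30% in dG.

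Blood cells share many surface, signalling and granule genes, and an immature line may carry genes of several lineages at once. Integrins, selectins, lectins and chemoattractant receptors tie such cells to vessel wall and matrix. Megakaryocytes, mast cells and cytotoxic lymphocytes are told apart by their granule contents and by receptors that set off release. A growing cell, in turn, spends much of its mRNA on translation factors, splicing proteins, import into mitochondria and the secretory pathway.

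CPM of single genes and lists are scaled by edgeR's trimmed mean of M values (TMM), while the rule for entering the test and the sums over marker sets use library totals. The line label was checked against its markers. CD34, the surface sialomucin of immature blood cells, was at 947 and 951 CPM in the PBS libraries and 1168 and 1164 CPM in the dG libraries. PTPRC (the pan-leukocyte phosphatase CD45) was at 919 and 918 CPM in PBS and SPN (the leukocyte sialophorin CD43) at 634 and 656 CPM. The transcription factors MYB, ERG, GATA2 and HOXA9 were abundant too, HOXA9 at 228 and 228 CPM in PBS and 228 and 235 CPM in dG, with no call. Several other genes often listed for such blasts were at or near 0: THY1 had no count, MEIS1 had 0 and 0 counts in PBS and 2 and 2 in dG, FLT3 had 1 or 2 counts in each library, and HLA-DRA had 1 to 4. CD33 had 2 and 1 counts in PBS and 23 and 16 in dG, too few to enter the test. The growth factor receptor KIT stood at 1.101 and 0.978 CPM in PBS and at 1.32 and 1.15 CPM in dG.

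Genes of other cells were looked for in the same libraries. The 12 genes of a monoblast set drawn up for U937, the other line of the series, summed to 1.1 and 0.912 CPM in PBS and to 1.91 and 1.42 CPM in dG. None entered the test. Not all of them mark U937, where CD14, MPO and MS4A6A averaged 0.0486, 0.125 and 0.788 CPM. CTSG, at 802 CPM in U937, had 4 and 5 counts in PBS and 42 and 22 in dG. CD14 had 14 and 12 counts in PBS and 4 and 4 in dG. Over 33 genes that were abundant in U937 and nearly silent in KG1A, the libraries held 17 and 25 counts in PBS and 58 and 45 in dG, which is 0.0140% to 0.0377% of the U937 level. These genes were chosen as nearly silent in KG1A, so a low share was set by the choice. At a share of 0.0377%, such a trace would supply up to 7.17% of the dG level of a gene that rose at least 2-fold. It could exceed 10% of the dG level in 1 gene called higher. In dG, CTSG, at 1.46 and 0.867 CPM, and CD33, at 0.799 and 0.631 CPM against 52.5 CPM in U937, stood at higher shares. The part of such a trace in any rise was not tested. Of 8 erythroid markers, 7 had no count in any library. COL1A1, EPCAM and the endothelial cadherin CDH5 had no count either. In bulk RNA, more cells of a kind and more RNA per cell cannot be told apart.

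After dG, 8641 genes passed an adjusted p of 0.05 (edgeR's quasi-likelihood test with Benjamini-Hochberg adjustment over the 14010 genes), which is 61.7% of those tested. Of these, 4364 genes (31.1%) rose and 4277 (30.5%) fell. The changes were mostly small: the median change of a called gene was 1.31-fold. At least 2-fold changes were uneven in direction, with 573 genes higher (4.09%) and 130 lower (0.928%). Among the 11246 genes with a mean of at least 4 CPM, 277 were at least 2-fold higher and 51 lower. The libraries of both groups did not overlap for 11158 genes (79.6%). Over all genes tested the median log2 fold change was -0.01, with the 5th and 95th percentiles at -0.63 and 0.90. The genes that rose took 32.0% of all CPM in PBS and 40.6% in dG. Errors on log2 fold changes are standard errors (SE), and n is 2 libraries in each group. Each gene said to rise or fall passed the test, and its dG libraries both lay on 1 side of both PBS libraries. Named genes under 1 CPM by library total in both PBS libraries, such as PROM1 and FLT4, entered through the dG libraries alone. They had to differ between the groups. The highest adjusted p among the 362 called genes that the naming rule selected was 0.0412. When a change of at least 1.2-fold was required of the test, 2322 genes rose and 1840 fell, and ACTB, CD34, GATA2, MYB and PTPRC, named here, lost their call. Where a list is given below with no number of members that passed through the dG libraries alone, it held at most 1. In these lists, counts of 3 or fewer in a direction shifted by at most 2 when 1 library was left out. List counts are read against a background in which 31.1% of genes rose and 30.5% fell.

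**Figure D1:**
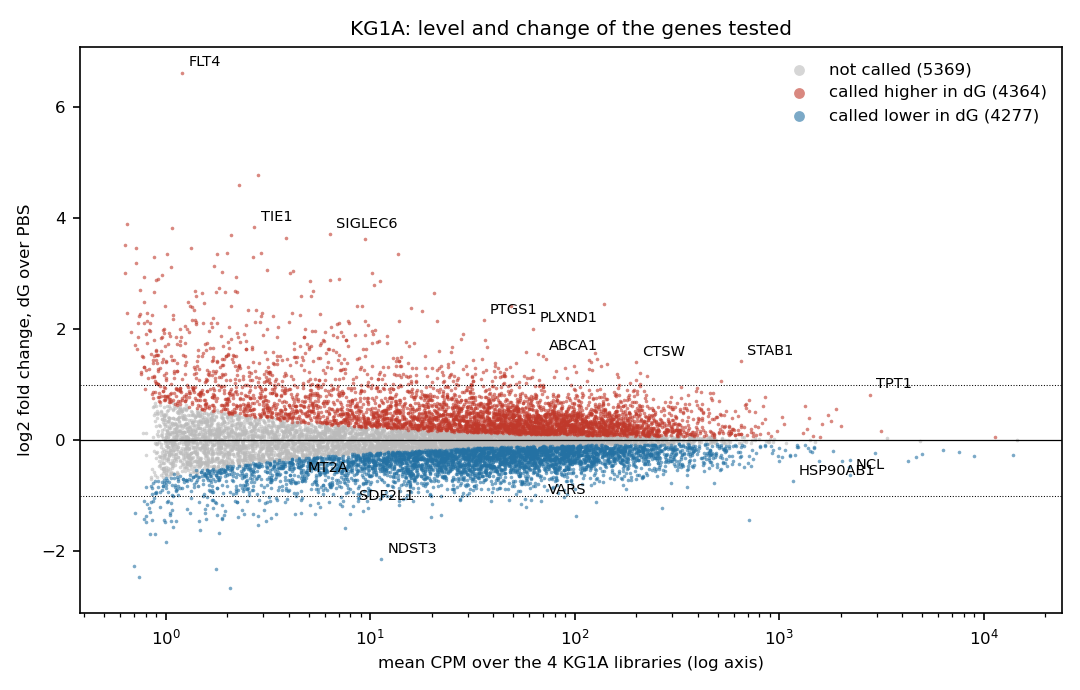
Each point is 1 of the 14010 genes tested, at its mean CPM over the 4 KG1A libraries (log axis) and its log2 fold change of dG over PBS. Red points (4364) were called higher and blue points (4277) lower in dG, dotted lines mark a 2-fold change, and changes of more than 2-fold were mostly rises.

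The steepest rises among genes of at least 4 mean CPM covered proteins of unlike kinds. SIGLEC6, a sialic acid-binding receptor of placenta and mast cells, was at 0.837 and 0.943 CPM in the PBS libraries and 11.6 and 12 CPM in the dG libraries. Both dG libraries were far above both PBS libraries, a log2 fold change of 3.71 ± 0.16 (adjusted p = 1.16e-13, edgeR). FKBP9, a peptidyl-prolyl isomerase of the endoplasmic reticulum, went from 1.19 and 0.664 CPM in PBS to 7.75 and 7.24 CPM in dG. GGT5, a gamma-glutamyltransferase that converts leukotriene C4, rose by 2.88 ± 0.16 on the log2 scale, from 1.37 and 1.08 CPM in PBS to 8.76 and 9.07 CPM in dG. TDRD9, a helicase of the germline piRNA pathway, rose by 2.69 ± 0.15. Because reads that match several places could be counted in ways the sources used here do not give, values of genes with near-identical copies, such as FKBP9, are uncertain.

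FLT4, the lymphatic endothelial growth factor receptor VEGFR3 (chromosome 5, 180601506 to 180649624, hg38), was close to off in PBS. It had 0 and 1 counts there against 67 and 62 counts in dG, at least 40.6-fold higher against a floor of 3 counts over the PBS group. DPEP1 and MUC4 fall outside the rule for named genes and were chosen after their values were seen, as the next steepest of all genes tested. DPEP1, a membrane dipeptidase that acts on leukotriene D4, had a mean of 0.188 CPM in PBS and 5.46 CPM in dG (log2 fold change 4.78 ± 0.29). MUC4, a membrane mucin, had 0.171 and 4.38 CPM (4.6 ± 0.29).

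Gains and losses of CPM are given for genes outside the mitochondrial genome. The largest gain was that of TPT1, the translationally controlled tumour protein, at 2015 and 1980.3 CPM in the PBS libraries and 3565 and 3498 CPM in the dG libraries. Per length it stood at 274 RPKM in PBS and 481 RPKM in dG. B2M, the light chain of HLA class I, was at 1533 and 1535 CPM in PBS and 2247 and 2270.0 CPM in dG. STAB1, a scavenger receptor of sinusoidal endothelium and some macrophages, went from 351 and 353 CPM in PBS to 970.1 and 927 CPM in dG, which made it 2.69 times as abundant. TPM4, a tropomyosin of actin filaments, CD44, the hyaluronan receptor, and PRDX1, a peroxiredoxin, gained too, with log2 fold changes of 0.45 ± 0.02, 0.78 ± 0.03 and 0.34 ± 0.03. MKI67 and TOP2A, which dividing cells express, rose by 0.41 ± 0.03 and 0.62 ± 0.03.

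The 25 mitochondrially encoded genes tested together lost more CPM than any nuclear gene, from 91009 and 91559 CPM in all in PBS to 80225 and 83286 CPM in dG. Among nuclear genes, the largest losses included RNA-binding proteins and chaperones. NCL, the nucleolar protein nucleolin, was at 2674 and 2680.5 CPM in the PBS libraries and 1746 and 1731 CPM in the dG libraries. HNRNPA2B1, a splicing repressor, fell from 2563 and 2537 CPM in PBS to 1800.1 and 1839.9 CPM in dG. The cytosolic chaperones HSP90AB1, HSPA8 and HSP90AA1 had log2 fold changes of -0.74 ± 0.03, -0.36 ± 0.02 and -0.37 ± 0.02. ACTB, cytoplasmic actin, fell from 3137 and 3179 CPM in PBS to 2753 and 2657 CPM in dG. CANX, the lectin chaperone calnexin, and EIF4G2, a translation initiation factor, changed by -0.37 ± 0.03 and -0.38 ± 0.02. Several of these genes have processed pseudogenes that can take part of their reads.

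More integrin subunits rose than fell. Of 26 integrin subunits, 17 were tested, 12 rose and 1 fell, with a median log2 fold change of 0.64, and 2 of them passed the CPM rule through the dG libraries alone. Among those tested, 12 had a mean of at least 4 CPM, and 8 of these rose. ITGA11, a collagen-binding alpha chain, went from 0.308 and 0.2096 CPM in PBS to 1.25 and 1.23 CPM in dG. Of the proteins that link integrins to actin, 16 of 24 rose and 4 fell (median 0.25). TNS1 (tensin) was at 27.4 and 29.3 CPM in the PBS libraries and 74.7 and 74.8 CPM in the dG libraries. ACTN1, which cross-links actin at adhesions, was at 128 and 127 CPM in PBS and 273 and 268 CPM in dG. VCL (vinculin) rose by 0.55 ± 0.03. TLN2, the second talin, went the other way, from 15.5 and 14.95 CPM in PBS to 7.58 and 7.601 CPM in dG.

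Among selectins, their ligands and immunoglobulin-type adhesion receptors, 16 of 23 rose and 3 fell (median 0.30). ICAM1, the ligand of leukocyte beta2 integrins, was at 7.004 and 6.64 CPM in the PBS libraries and 22.7 and 23.6 CPM in the dG libraries. NCAM1 (CD56) was at 12.99 and 11.9 CPM in PBS and 35.4 and 39.5 CPM in dG, a log2 fold change of 1.59 ± 0.08. NECTIN1, a nectin adhesion molecule, fell from 113 and 118 CPM in PBS to 64.1 and 58.9 CPM in dG. Of the tetraspanins, membrane organisers that bind integrins, 11 of 17 rose and 1 fell (median 0.39), CD82 the most, at 51.7 and 51.8 CPM in PBS and 137 and 117 CPM in dG.

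C-type lectins, siglecs and galectins read sugars on other cells. Of 19 tested, 16 rose and 1 fell, with a median of 0.68, and 2 passed through the dG libraries alone. Restricted to a mean of at least 4 CPM, 12 of 12 rose. CLEC12A, an inhibitory lectin found on myeloid blasts, went from 0.705 and 1.29 CPM in PBS to 4.798 and 4.197 CPM in dG. LGALS2, a galectin, was at 0.2203 and 0.2096 CPM in PBS and 1.91 and 1.504 CPM in dG. The guidance receptors and ligands were mixed, 12 of 24 higher and 5 lower (median 0.38), with 3 lower without PBS replicate 2. PLXND1, the semaphorin 3E receptor, was at 23.3 and 26.4 CPM in the PBS libraries and 102 and 99.6 CPM in the dG libraries. The coreceptor NRP1 and the receptor PLXNB2 rose by 1.63 ± 0.12 and 1.3 ± 0.08. SEMA3C, a secreted ligand, was among the steepest falls of all genes, from 3.17 and 2.69 CPM in PBS to 0.382 and 0.792 CPM in dG.

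**Figure D2:**
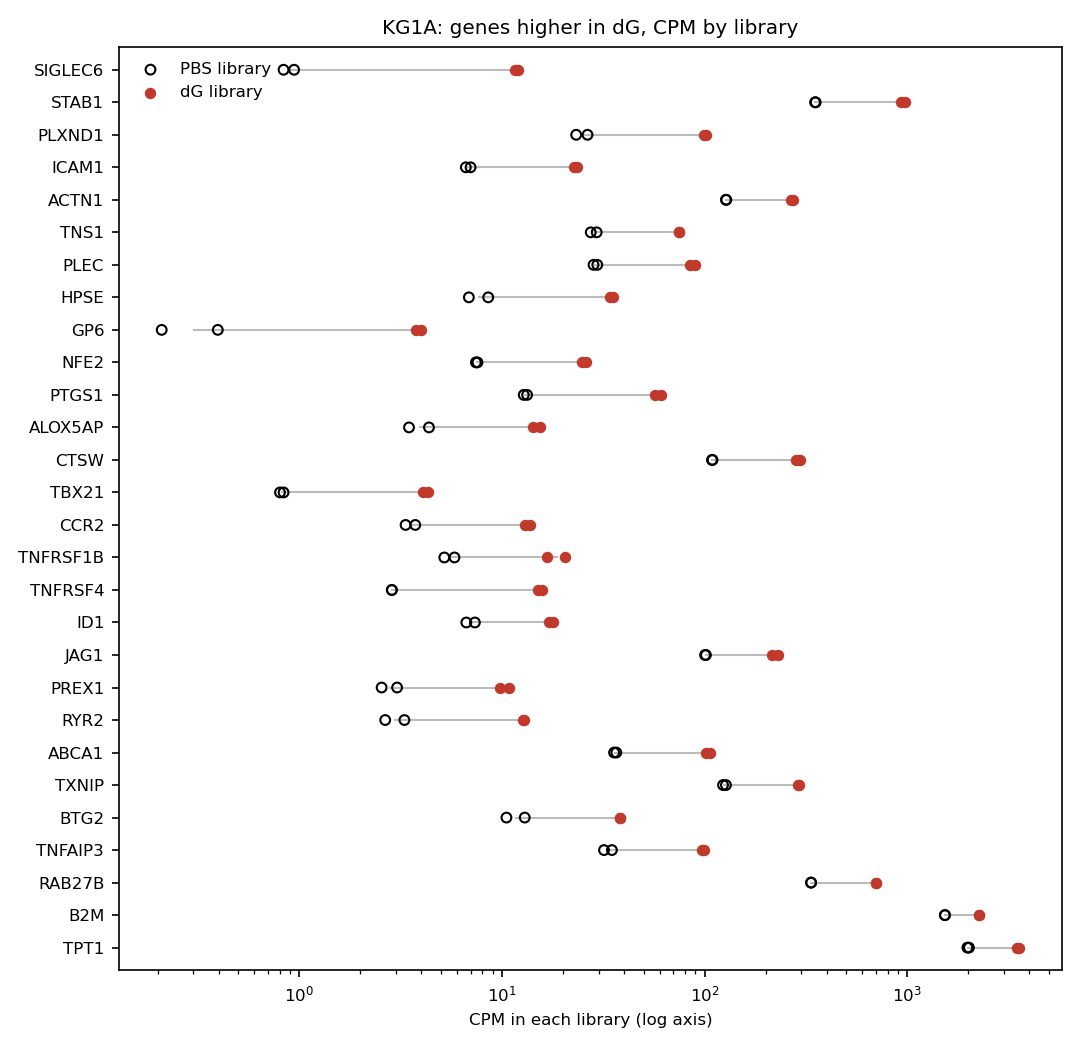
CPM in each library (log axis) of 28 genes called higher in dG. Open circles are the 2 PBS libraries, filled circles the 2 dG libraries and the line joins the group means. In every gene shown both filled circles lie to the right of both open circles.

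Genes of several blood lineages rose side by side. Of 42 megakaryocyte and platelet genes, 25 were tested, 21 rose and 0 fell (median 0.62), and 3 passed through the dG libraries alone. GP6, the platelet collagen receptor, was at 0.396 and 0.2096 CPM in the PBS libraries and 3.76 and 3.999 CPM in the dG libraries. Of 41 mast cell and basophil genes, 12 were tested, 9 rose and 0 fell, with the highest median of all lists, 1.53. Of these 12, 4 passed through the dG libraries alone, and of the 7 with a mean of at least 4 CPM, 6 rose. ALOX5AP, which presents arachidonate to 5-lipoxygenase, was at 3.48 and 4.37 CPM in PBS and 14.2 and 15.5 CPM in dG.

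Cytotoxic, NK and T lymphoid genes were counted next, with 23 of 31 higher and 1 lower (median 0.78), 3 of them passing through the dG libraries alone. CST7, the cystatin of cytotoxic granules, was at 1.32 and 1.26 CPM in the PBS libraries and 7.65 and 8.08 CPM in the dG libraries. TBX21, the transcription factor T-bet, was at 0.837 and 0.804 CPM in PBS and 4.103 and 4.32 CPM in dG. IL7R (the interleukin 7 receptor) and CCL5 (a chemokine of activated lymphocytes) rose from under 1 CPM in each PBS library to 2.504 and 3.13 CPM and 1.91 and 2.22 CPM in dG. CTSW, a cathepsin of NK and cytotoxic T cells, was already abundant and went from 109 and 109 CPM in PBS to 296 and 283 CPM in dG. Among T cell markers, CD3E went from 10.7 and 11.3 CPM in PBS to 21.3 and 20.5 CPM in dG, while CD3D was at 95.5 and 97.9 CPM in PBS and 101 and 98.5 CPM in dG with no call. The T cell markers CD3G, CD8A and CD4 had at most 8 counts in any library and were not tested. The B cell marker MS4A1 had no count, and PAX5 had 137 and 141 counts in PBS and 168 and 151 in dG, with no call. Of 10 B and T lymphocyte markers in all, 4 were tested, 2 rose and 0 fell. Of B lymphoid and plasma cell genes, 5 of 12 rose and 1 fell (median 0.38), among them MZB1, a plasma cell chaperone, from 1.23 and 1.29 CPM in PBS to 2.96 and 3.603 CPM in dG. IGHD, an immunoglobulin heavy chain gene, fell by 0.81 ± 0.13.

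Erythroid and haem genes did not share a direction, with 8 of 24 higher and 7 lower (median 0.03). EPOR, the erythropoietin receptor, rose by 1.17 ± 0.18 and HEMGN, a nuclear protein of haematopoietic cells, by 0.81 ± 0.04. UROS, a haem synthesis enzyme, fell from 62.6 and 66.6 CPM in PBS to 36.1 and 36.7 CPM in dG. Of 23 fibroblast, endothelial and epithelial markers, kept as a check for other cells, 6 were tested, 5 rose, 1 fell and 9 had no count in any library. Their summed CPM was 48.6 and 47.1 in PBS and 91.8 and 93.5 in dG. The list built on them had 7 of 24 genes tested, 6 higher and 1 lower (median 0.79), 2 of them, TIE1 and TEK, passing through the dG libraries alone, and 2 had a mean of at least 4 CPM. The part of such markers in the rises of endothelial, adhesion and matrix genes was not tested. The risers included the endothelial receptor TIE1, from 0.308 and 0.384 CPM in PBS to 5.598 and 4.55 CPM in dG, its partner TEK, from 0.749 and 0.524 CPM in PBS to 1.67 and 1.62 CPM in dG, and endomucin, EMCN, from 37.6 and 38.05 CPM in PBS to 75.6 and 79.2 CPM in dG. These sit beside FLT4, and all except EMCN were under 1 CPM in PBS. Other endothelial markers of the set stayed at or near 0: CDH5 had no count and KDR had 1 count in each library. The fibroblast collagen COL3A1 fell from 4.58 and 3.98 CPM in PBS to 2.02 and 1.504 CPM in dG. PROM1 (CD133), a surface protein of progenitor cells, went from 0.617 and 0.699 CPM in PBS to 3.82 and 3.25 CPM in dG.

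Of haematopoietic transcription factors, 37 of 56 rose and 4 fell (median 0.25), and 2 fell without PBS replicate 2. NFE2, the platelet and erythroid bZIP factor, was at 7.58 and 7.44 CPM in the PBS libraries and 26.04 and 24.7 CPM in the dG libraries. GATA3, a T and mast cell factor, was at 34.5 and 33.6 CPM in PBS and 62.9 and 62.1 CPM in dG. ERG and GATA2 rose by 0.49 ± 0.04 and 0.26 ± 0.04, and MYBL1, a relative of MYB, by 0.73 ± 0.08. The interferon regulatory factors and their cofactors had 7 of 9 higher and 0 lower (median 0.42), from IRF2BP2, from 175 and 175 CPM in PBS to 237 and 236 CPM in dG, to IRF7, from 2.25 and 1.78 CPM in PBS to 4.03 and 4.47 CPM in dG.

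Of TNF superfamily ligands and receptors, 16 of 22 rose and 1 fell (median 0.52), 2 of them passing through the dG libraries alone. TNFRSF1B, the second TNF receptor, was at 5.198 and 5.83 CPM in the PBS libraries and 20.4 and 16.8 CPM in the dG libraries. TNFRSF4 (OX40) was at 2.86 and 2.87 CPM in PBS and 14.99 and 15.8 CPM in dG. TNFRSF10D, a decoy receptor for TRAIL, went from 0.705 and 0.314 CPM in PBS to 4.83 and 4.87 CPM in dG. Of chemoattractant and S1P receptors, 12 of 17 rose and 1 fell (median 0.70), 2 of them passing through the dG libraries alone, and at a mean of at least 4 CPM 7 of 11 rose. CCR2, the monocyte chemokine receptor, was at 3.35 and 3.74 CPM in PBS and 13.7 and 12.99 CPM in dG, and GPR84, a receptor for medium-chain fatty acids, rose by 1.24 ± 0.13. All 5 of the GIMAP GTPases tested rose, with a median of 0.45, and GIMAP6 was at 52.2 and 47.5 CPM in PBS and 68.2 and 70.7 CPM in dG. Of complement and coagulation genes, 13 of 16 rose and 2 fell (median 0.95). CLU (clusterin), PLAU (urokinase) and C1S, a complement protease, rose by 1.54 ± 0.12, 1.49 ± 0.17 and 1.37 ± 0.16.

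Genes that read or handle nucleosides were examined as a group of lists. Of purinergic receptors and ectonucleotidases, 8 of 13 rose and 2 fell (median 0.30), 2 of them passing through the dG libraries alone. P2RX7, an ATP-gated channel, was at 17.7 and 17.3 CPM in the PBS libraries and 35.5 and 34.6 CPM in the dG libraries. P2RX1, the platelet ATP channel, rose by 1.2 ± 0.10 and DPP4, the membrane protease that binds adenosine deaminase, went from 0.352 and 0.2795 CPM in PBS to 1.495 and 1.23 CPM in dG. Of the endosomal Toll-like receptors and their adaptors, 10 of 19 rose and 3 fell (median 0.21), yet the summed CPM of the list was 1377 and 1369 in PBS and 1249 and 1269.7 in dG. LY96, the lipid-binding partner of TLR4 and not a reader of nucleosides, was counted in this list and rose by 1.2 ± 0.11.

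Of base excision repair and pool-sanitising genes, 7 of 29 rose (24.1%) and 12 fell (41.4%), with a median of -0.09. Among protein-coding genes of 3110 to 3821 exon bases, which spans the median length of this list, 25.9% rose and 37.7% fell. Shares near these are not a result about the members. APEX1, the main abasic site endonuclease, was at 227 and 236 CPM in the PBS libraries and 148 and 146 CPM in the dG libraries. DCTPP1, which hydrolyses dCTP and its modified forms, fell by 0.68 ± 0.07, while the DNA glycosylase NEIL3 rose by 0.87 ± 0.06. Of mitochondrial DNA maintenance genes, 5 of 26 rose and 14 fell (median -0.15). SSBP1, which coats single-stranded mitochondrial DNA, fell from 72.99 and 77.5 CPM in PBS to 45.9 and 47.7 CPM in dG, and TFB2M, a mitochondrial transcription factor, fell by 0.69 ± 0.07. Of 25 genes encoded by the mitochondrial genome that were tested, 19 fell and 1 rose. Of APOBEC deaminases and RNA editors, 3 of 13 rose and 6 fell. Neighbouring paralogs differed: APOBEC3B went from 1.67 and 2.76 CPM in PBS to 7.68 and 7.44 CPM in dG and APOBEC3G from 92.8 and 99.6 CPM in PBS to 67.3 and 67.1 CPM in dG.

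Signalling lists come next. Of TGF-beta and BMP genes, 21 of 31 rose and 1 fell (median 0.32). ID1, a target of BMP signalling that blocks bHLH factors, was at 7.36 and 6.67 CPM in the PBS libraries and 17.9 and 17.1 CPM in the dG libraries. The inhibitory SMAD6 and SMAD7 rose by 1.41 ± 0.13 and 1.21 ± 0.13, and LTBP1, which binds latent TGF-beta, by 1.76 ± 0.16. Of Notch genes, 16 of 26 rose and 3 fell (median 0.20). The ligand JAG1 was at 102 and 101 CPM in PBS and 231 and 215 CPM in dG, the target HES1 at 22.5 and 21 CPM in PBS and 40.2 and 39.8 CPM in dG, and ADAM10, the protease that cuts the receptor, at 329 and 319 CPM in PBS and 479 and 492 CPM in dG. The second ligand, JAG2, went from 0.441 and 0.349 CPM in PBS to 2.16 and 2.65 CPM in dG. Of WNT genes, 10 of 25 rose and 8 fell (median 0.05), and the falls numbered 5 without PBS replicate 1 and 4 without PBS replicate 2 or dG replicate 2. LGR5, a receptor that strengthens WNT signals, rose by 1.53 ± 0.21, and BCL9, a beta-catenin cofactor, fell by 0.92 ± 0.09.

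Of JAK, STAT and SOCS genes, 17 of 33 rose and 4 fell (median 0.12). SH2B3, an adaptor that restrains JAK2, was at 171 and 166 CPM in PBS and 256 and 257 CPM in dG, and PIM2, a STAT-induced kinase, and STAT2 rose by 0.76 ± 0.05 and 0.63 ± 0.06. The G protein list had 15 of 26 higher and 2 lower (median 0.17). Ras and Rap regulators had 23 of 33 higher and 2 lower (median 0.22), with RASA3, a GTPase-activating protein of platelets, at 21.5 and 22.8 CPM in PBS and 45.9 and 49.6 CPM in dG. RAPGEF3, a cAMP-driven activator of Rap, rose by 1.57 ± 0.13. Phosphoinositide enzymes had 27 of 46 higher and 9 lower (median 0.15). PIK3R6, the regulatory subunit of PI3K gamma, went from 0.264 and 0.419 CPM in PBS to 3.34 and 2.89 CPM in dG. PLCB2, a phospholipase C of blood cells, was at 115 and 114 CPM in PBS and 200.2 and 206 CPM in dG.

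Protein kinase C and diacylglycerol kinase genes had 11 of 19 higher and 2 lower (median 0.26). PRKCB rose from 16.4 and 17.4 CPM in PBS to 37 and 37.2 CPM in dG and DGKG fell from 11.3 and 12.5 CPM in PBS to 5.702 and 5.46 CPM in dG. The AKT, FOXO and mTORC1 list was split, with 22 of 55 higher and 21 lower. Its steepest risers were TXNIP, an arrestin that restrains glucose uptake, from 123 and 127 CPM in PBS to 293 and 289 CPM in dG, the FOXO target SESN3, from 36.8 and 36.4 CPM in PBS to 79.5 and 80.4 CPM in dG, and the insulin receptor substrate IRS2, from 9.25 and 10.1 CPM in PBS to 21.5 and 21.8 CPM in dG. DEPTOR, an mTOR inhibitor, fell by 0.90 ± 0.16.

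Several regulators of the actin cytoskeleton rose. PREX1, a Rac exchange factor driven by phosphoinositides and G protein beta-gamma, was at 3.04 and 2.55 CPM in the PBS libraries and 10.8 and 9.74 CPM in the dG libraries. ARHGEF17 rose by 2.36 ± 0.27 and the GTPase-activating proteins ARHGAP33 and ARHGAP23 by 1.33 ± 0.13 and 1.18 ± 0.08. Of the myosins, 15 of 23 rose and 0 fell (median 0.28), MYO7A the most, from 1.72 and 1.89 CPM in PBS to 5.56 and 4.79 CPM in dG. Actin filament regulators had 32 of 67 higher and 15 lower (median 0.11). PDLIM7, a PDZ-LIM scaffold, was at 1.81 and 2.06 CPM in PBS and 9.28 and 9.54 CPM in dG, FMNL3, a formin, at 21.5 and 21.98 CPM in PBS and 52.7 and 51.2 CPM in dG, and CAPG, a capping protein, at 8.41 and 9.26 CPM in PBS and 21.1 and 19.4 CPM in dG.

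Tubulins, septins and microtubule proteins were balanced, with 16 of 40 higher and 13 lower. TUBA4A, the tubulin of platelets, went from 4.41 and 3.91 CPM in PBS to 16.7 and 15.8 CPM in dG, within a family whose near-identical members can exchange reads, and SEPTIN9 went from 45.5 and 48.1 CPM in PBS to 95.9 and 91.9 CPM in dG. Of 5 intermediate filament and linker genes tested, 2 rose and 3 fell. PLEC (plectin) was at 28.3 and 29.6 CPM in the PBS libraries and 89.7 and 84.5 CPM in the dG libraries. Genes of the motile cilium, which blood cells lack, had 31 of 97 members tested, 10 higher and 9 lower, and 6 higher without dG replicate 2, with 2 passing through the dG libraries alone. Those of intraflagellar transport and the primary cilium fell more often than they rose, 24 against 9 of 53 (median -0.18). IFT22 and IFT81, transport subunits, had log2 fold changes of -1.11 ± 0.17 and -1.09 ± 0.17, and BBS9, of the BBSome, of -0.98 ± 0.13.

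Few matrix genes were measured in this blood line. Of 74 collagens, laminins and matrix proteins, 20 were tested, 15 rose and 1 fell (median 0.65), and 2 passed through the dG libraries alone. COL24A1 was at 9.74 and 9.71 CPM in the PBS libraries and 24.2 and 23.4 CPM in the dG libraries, and COL15A1 at 0.529 and 0.839 CPM in PBS and 2.05 and 1.54 CPM in dG. Of extracellular proteases, cathepsins and serpins, 15 of 27 rose and 3 fell (median 0.23). ADAMTS10, a fibrillin-binding protease, went from 7.14 and 7.41 CPM in PBS to 23.4 and 24.1 CPM in dG, and CTSS, the cathepsin of antigen-presenting cells, went from 4.801 and 4.19 CPM in PBS to 14.5 and 13.4 CPM in dG. The proteoglycan list was balanced, 15 of 37 higher and 9 lower (median 0.01), yet held steep members. HPSE, the heparanase that cuts heparan sulfate, was at 6.87 and 8.56 CPM in the PBS libraries and 35.3 and 34.1 CPM in the dG libraries. SDC4 (syndecan 4), a heparan sulfate core protein, was at 23.4 and 22.8 CPM in PBS and 57.9 and 58.5 CPM in dG, and UST, a uronyl sulfotransferase, rose by 1.51 ± 0.16.

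Of the eicosanoid list, 10 of 22 rose and 3 fell (median 0.18), and its 4 steepest risers were PTGS1, ALOX5AP (given above), TBXAS1 and TBXA2R. PTGS1 (cyclooxygenase 1), which makes prostaglandin H2, was at 12.8 and 13.3 CPM in the PBS libraries and 56.8 and 60.7 CPM in the dG libraries. TBXAS1, which turns prostaglandin H2 into thromboxane, was at 2.95 and 3.32 CPM in PBS and 11.9 and 11.2 CPM in dG, and the thromboxane receptor TBXA2R at 23.04 and 24.9 CPM in PBS and 60.3 and 53.2 CPM in dG. Of ABC transporters, 13 of 27 rose and 7 fell (median 0.16), 2 passed through the dG libraries alone, and 4 fell without PBS replicate 2. ABCA1, the cholesterol exporter, was at 35.8 and 36.7 CPM in PBS and 101 and 106 CPM in dG. ABCG1, its partner, was at 58.01 and 56.7 CPM in PBS and 128 and 123 CPM in dG, and ABCA7 at 18.9 and 20.5 CPM in PBS and 45.1 and 41.6 CPM in dG. Sphingolipid enzymes had 18 of 38 higher and 7 lower (median 0.14), with UGCG, the glucosylceramide synthase, up by 0.82 ± 0.06. Fatty acid enzymes were balanced, 14 higher and 16 lower of 43.

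Of 38 channels tested, 23 rose and 6 fell (median 0.29). KCNN4, the calcium-activated potassium channel of blood cells, was at 20.6 and 20.9 CPM in PBS and 41.3 and 41.7 CPM in dG. Calcium genes had 28 of 53 higher and 8 lower (median 0.16). RYR2, the ryanodine receptor best known from heart, was at 3.304 and 2.66 CPM in the PBS libraries and 12.8 and 12.7 CPM in the dG libraries. ORAI3, a calcium entry channel, and NFATC1, a calcium-driven transcription factor, rose by 1.26 ± 0.18 and 1.34 ± 0.21.

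In the secretory pathway, lists of the first steps held more falls than rises. Of the 44 genes that build and transfer the N-glycan precursor, 25 fell and 7 rose (median -0.25), the rises numbering 3 without PBS replicate 1 and 4 without PBS replicate 2 or dG replicate 1. PMM2, which supplies mannose 1-phosphate, was at 20.04 and 19.95 CPM in the PBS libraries and 11.4 and 10.9 CPM in the dG libraries. Of 41 genes of translocation into the endoplasmic reticulum, 27 fell and 5 rose (median -0.18). SEC11C, a signal peptidase subunit, was at 26.6 and 28.8 CPM in PBS and 13 and 12.1 CPM in dG, and SRPRB, of the signal recognition particle receptor, at 113 and 116 CPM in PBS and 78.7 and 73.95 CPM in dG. SDF2L1, a chaperone cofactor of the same compartment, fell by 1.19 ± 0.11. GPI anchor synthesis had 13 lower and 3 higher of 28 (median -0.16), with log2 fold changes of -0.87 ± 0.07 in PIGW and -0.78 ± 0.07 in PIGM. COPI and COPII coats had 23 lower and 7 higher of 45 (median -0.13), with 3 higher without PBS replicate 1 or dG replicate 1 and 2 without PBS replicate 2.

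Lists of later stages held more rises than falls. Of 49 genes that branch, sialylate or fucosylate glycans, 26 rose and 5 fell (median 0.16). FUT1, a fucosyltransferase, and ST3GAL6, a sialyltransferase of selectin ligands, rose by 1.37 ± 0.17 and 1.19 ± 0.22. Rab GTPases had 15 of 42 higher and 5 lower (median 0.09), and the share that rose, 35.7%, was near the 31.1% of all genes tested. RAB27B, which docks granules of platelets and mast cells, was at 335 and 336 CPM in the PBS libraries and 698 and 704 CPM in the dG libraries. RAB37, of mast cell granules, was at 27 and 28.3 CPM in PBS and 68.2 and 69.6 CPM in dG. The exocytosis list had 22 of 45 higher and 8 lower (median 0.12), and 5 lower without PBS replicate 1. SYTL4, a Rab27 effector, was at 88.5 and 85.6 CPM in PBS and 155 and 154 CPM in dG, and VAMP1, VAMP2 and VAMP5, vesicle SNAREs, rose by 0.75 ± 0.09, 0.72 ± 0.06 and 0.68 ± 0.10. Autophagy genes had 21 of 54 higher (38.9%) and 12 lower (22.2%), with a median of 0.05. Among protein-coding genes with 6118 to 7052 exon bases, which spans the median length of this list, 40.2% rose and 27.9% fell. Shares near these are not a result about the members. BNIP3, a mitophagy receptor, was at 18.2 and 19.2 CPM in PBS and 52.02 and 51.7 CPM in dG, OPTN (optineurin) at 50.2 and 49.1 CPM in PBS and 109 and 109 CPM in dG, and ATG16L2 at 41.7 and 35.8 CPM in PBS and 103 and 109.6 CPM in dG.

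The lowest median of the 80 lists was in mitochondria. Of 50 genes of mitochondrial protein import and proteolysis, 40 fell and 3 rose (median -0.37). TOMM22, a receptor of the outer membrane translocase, was at 97.5 and 102 CPM in the PBS libraries and 55.6 and 54.8 CPM in the dG libraries. TOMM40, its channel, was at 111 and 115 CPM in PBS and 70.4 and 65.1 CPM in dG, and MIPEP, which trims imported precursors, at 9.82 and 10.5 CPM in PBS and 4.97 and 3.92 CPM in dG. Carriers of the inner membrane had 16 lower (38.1%) and 9 higher (21.4%) of 42 (median -0.13). Among protein-coding genes of 3821 to 4537 exon bases, which spans the median length of this list, 37.7% fell and 32.7% rose. A share of falls near this is not a result about the members. Tricarboxylic acid cycle genes had 20 lower and 8 higher of 40 (median -0.18). FH (fumarase) was at 74.1 and 76.9 CPM in PBS and 45.3 and 47.9 CPM in dG. Among the 8 risers were GPT2, an alanine transaminase, and IDH1, which makes NADPH, with log2 fold changes of 0.56 ± 0.03 and 0.66 ± 0.04.

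Of iron and iron-sulfur genes, 25 fell and 6 rose of 40 (median -0.23), with 16 falls without PBS replicate 2. NFS1, the cysteine desulfurase that starts iron-sulfur clusters, was at 19.5 and 18.2 CPM in the PBS libraries and 8.83 and 8.71 CPM in the dG libraries. CYBRD1, a ferric reductase of the surface, rose from 25.02 and 26.2 CPM in PBS to 48.5 and 46.4 CPM in dG. Metallothioneins and zinc or copper transport had 13 lower and 4 higher of 29. MT1X and MT2A, metal-binding proteins of a family with near-identical members, fell from 2.86 and 2.69 CPM in PBS to 1.01 and 0.713 CPM in dG and from 5.11 and 6.18 CPM in PBS to 3.58 and 3.52 CPM in dG. Selenoproteins had 9 lower (39.1%) and 3 higher of 23, and the share that fell was near the 37.7% of protein-coding genes of 3821 to 4537 exon bases. Peroxisome genes had 16 lower and 8 higher of 36, and glutathione and thioredoxin genes 25 and 17 of 56, 2 of which passed through the dG libraries alone.

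One-carbon and amino acid genes were split. Of serine, glycine and folate enzymes, 11 rose and 14 fell of 30 (median -0.09). The risers included PHGDH, the first enzyme of serine synthesis, at 7.31 and 7.48 CPM in the PBS libraries and 21.3 and 20.5 CPM in the dG libraries. GLDC, of glycine cleavage, and the mitochondrial folate enzyme ALDH1L2 rose by 2.14 ± 0.17 and 1.42 ± 0.09. Amino acid transporters had 9 higher and 9 lower of 23, with SLC38A5 falling from 77.97 and 81.8 CPM in PBS to 47.7 and 42.7 CPM in dG and SLC6A8, a creatine transporter, rising from 0.793 and 0.769 CPM in PBS to 2.26 and 2.73 CPM in dG.

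Lists of the machinery of gene expression held more falls than rises. Of 68 translation factors, 45 fell and 7 rose (median -0.28). EIF5A, the hypusinated factor, was at 118 and 119 CPM in the PBS libraries and 74.2 and 69.8 CPM in the dG libraries, and DPH2, which makes the diphthamide of EEF2, at 25.8 and 27.3 CPM in PBS and 13.8 and 12.4 CPM in dG. Of 40 aminoacyl-tRNA synthetases and cofactors, 25 fell and 5 rose (median -0.23). VARS was at 91.8 and 95.2 CPM in PBS and 44.1 and 44.02 CPM in dG. WARS, the tryptophanyl enzyme that interferon also induces, rose from 126 and 123 CPM in PBS to 237 and 232 CPM in dG, while its mitochondrial counterpart WARS2 fell by 0.80 ± 0.08.

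Of 72 spliceosome proteins, 53 fell and 4 rose (median -0.25), and 1 rose without PBS replicate 2. SF3B5, of the branch point complex, was at 60.3 and 60.4 CPM in the PBS libraries and 35.7 and 35 CPM in the dG libraries, and SNRPE, a core snRNP protein, at 39.1 and 40.6 CPM in PBS and 23.4 and 27.4 CPM in dG. SR proteins and hnRNPs had 29 lower and 14 higher of 56 (median -0.10). HNRNPM fell from 532 and 525 CPM in PBS to 377 and 372 CPM in dG, and the SR kinase CLK1 rose from 112 and 115 CPM in PBS to 161 and 164 CPM in dG. Nuclear pore and transport genes had 38 lower and 7 higher of 61 (median -0.19), with 3 higher without PBS replicate 2 and 4 without dG replicate 2. RAN, the GTPase that powers this transport, was at 411 and 427 CPM in PBS and 295 and 282 CPM in dG and its exchange factor RCC1 at 139.7 and 143 CPM in PBS and 100.3 and 94.5 CPM in dG. RNA polymerase II, Mediator and general factors had 44 lower and 14 higher of 91 (median -0.13). MED14, a Mediator backbone subunit, rose against that list, from 68.6 and 69.1 CPM in PBS to 113 and 113 CPM in dG, as did the elongation factor ELL2, from 9.43 and 9.61 CPM in PBS to 18.2 and 19.3 CPM in dG.

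RNA decay genes had 32 lower and 20 higher of 74 (median -0.06). PNPT1, a mitochondrial exonuclease, fell from 108 and 103 CPM in PBS to 66.8 and 69.6 CPM in dG. BTG2, an antiproliferative protein that recruits deadenylases, was at 10.5 and 12.96 CPM in the PBS libraries and 38.4 and 38.1 CPM in the dG libraries, and its relative BTG3 rose by 0.62 ± 0.05.

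**Figure D3:**
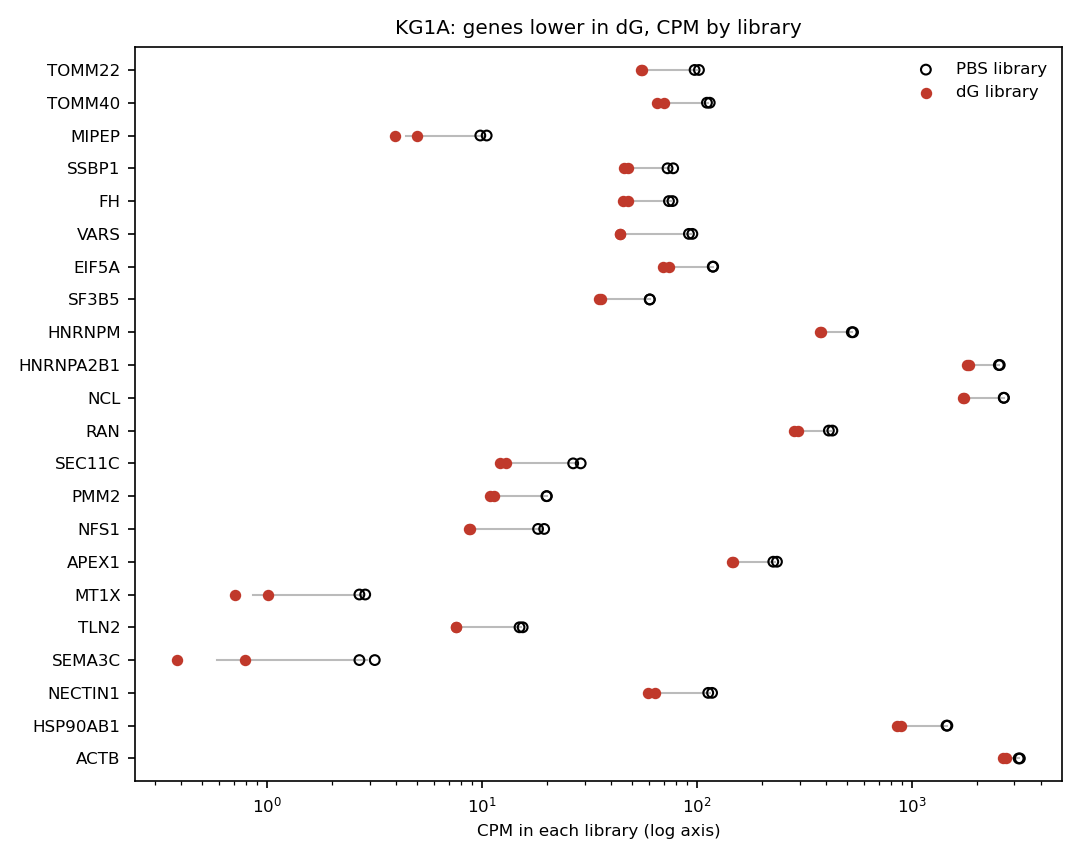
CPM in each library (log axis) of 22 genes called lower in dG. Open circles are the 2 PBS libraries, filled circles the 2 dG libraries and the line joins the group means. Both filled circles lie to the left of both open circles in every gene shown, and most shifts are smaller than 2-fold.

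The 4 chromatin lists were read beside exon length, since their genes are long, with median exon lengths of 6861 to 7636 bases. In the length bin from 6118 to 7052 bases 40.2% of protein-coding genes rose and 27.9% fell, and in the next 41.9% and 27.4%, so that shares near these are not a result about the members. Polycomb and DNA methylation genes had 23 of 52 higher and 11 lower (median 0.12), remodellers 20 of 55 and 14 (median 0.03), histone methyltransferases and demethylases 25 of 62 and 14 (median 0.06), and acetylation genes 29 of 59 and 13 (median 0.13). KDM3A, an H3K9 demethylase that hypoxia induces, was at 81.6 and 78.3 CPM in the PBS libraries and 134 and 139 CPM in the dG libraries, and KDM5B at 309 and 299 CPM in PBS and 439 and 433 CPM in dG. HDAC9 rose by 0.74 ± 0.06, and L3MBTL2, of a Polycomb complex, fell by 0.75 ± 0.06. RUVBL1, an ATPase of several remodellers, was at 109.6 and 108 CPM in PBS and 71.9 and 71.3 CPM in dG. Circadian genes had 10 of 23 higher and 6 lower, with the repressor BHLHE40 at 34.1 and 34.1 CPM in PBS and 59.98 and 61.9 CPM in dG. Deubiquitinases had 22 higher and 21 lower of 65, and cullin adaptors and F-box proteins 38 and 30 of 95. TNFAIP3 (A20), which edits ubiquitin in NF-kB signalling, was at 34.9 and 31.9 CPM in PBS and 97.3 and 99.4 CPM in dG.

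**Figure D4:**
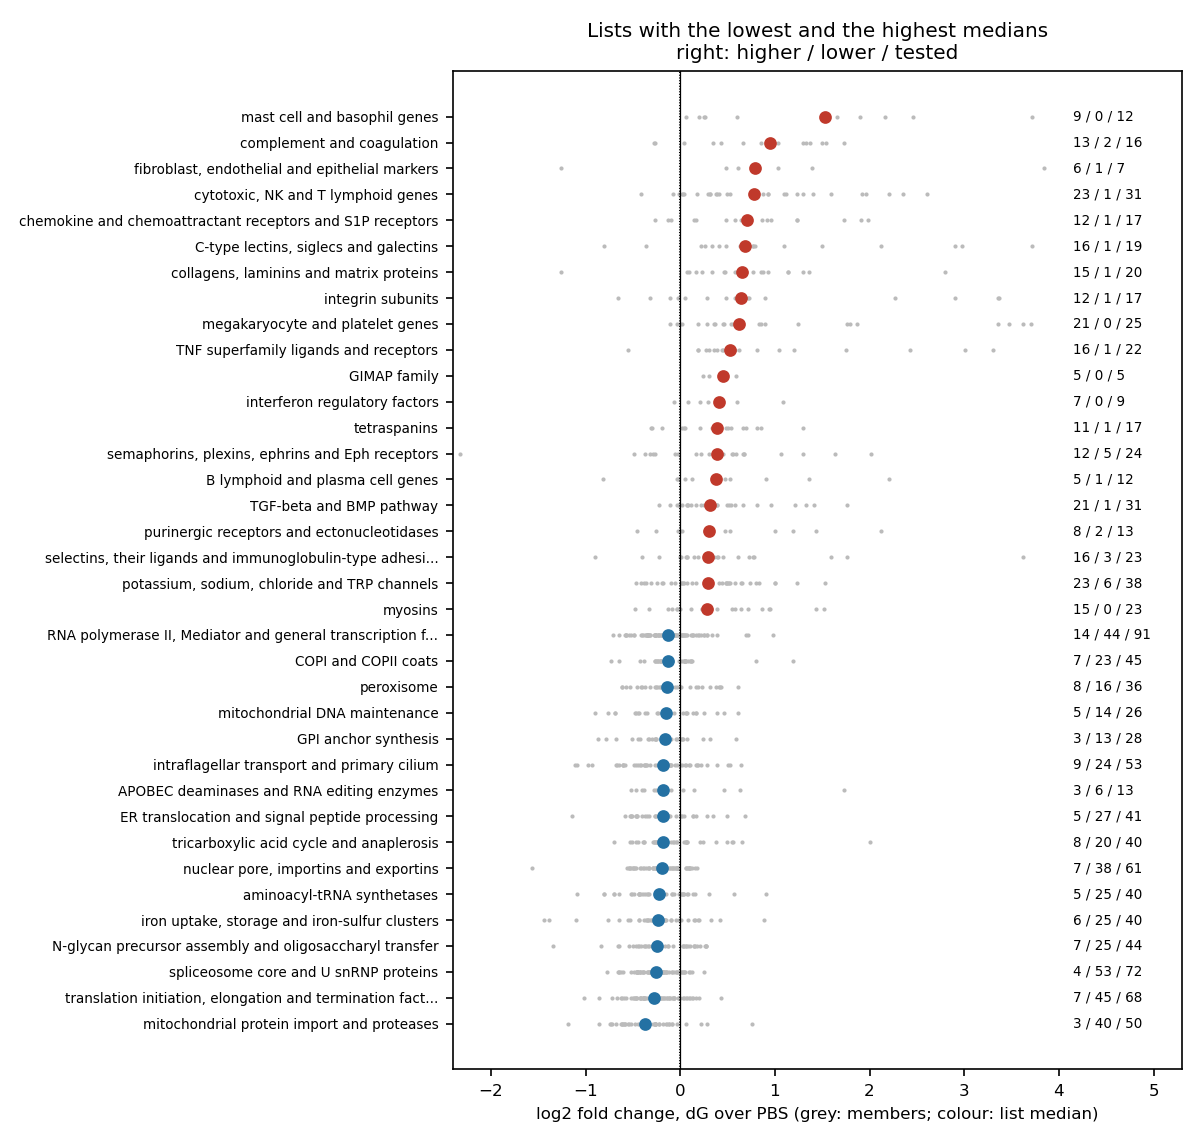
The 16 lists with the lowest and the 20 with the highest median log2 fold change of dG over PBS. Grey points are tested members, the coloured point is the list median, the dotted line is the median of all genes tested, and the numbers at the right give members higher, lower and tested. Medians run from -0.37 for mitochondrial protein import to 1.53 for mast cell and basophil genes.

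Over the 80 lists, 51 had a positive and 29 a negative median. Genes were also grouped by the letters of their symbols. Of 130 families with at least 10 tested members, the 6 with the lowest medians were PSMB, TIMM, MRPS, MRPL, PSMD and NAA, the first 4 at -0.54, -0.47, -0.45 and -0.44. All 28 MRPS genes, of the small mitochondrial ribosomal subunit, fell, and so did 44 of 49 MRPL genes, of the large subunit. PSMD3, a proteasome cap subunit, went from 137 and 138 CPM in PBS to 81.4 and 78.7 CPM in dG, TIMM10, an inner membrane import chaperone, from 38.9 and 40.1 CPM in PBS to 24.3 and 23.3 CPM in dG, and MRPL11 from 118 and 124 CPM in PBS to 61.9 and 62.6 CPM in dG. The 6 with the highest were COL, RGS, IL, TNFRSF, ARHGEF and MYO, the first 4 at 0.72, 0.62, 0.56 and 0.55. Of the 12 COL genes, 2 passed through the dG libraries alone, and the 3 with a mean of at least 4 CPM had a median of 0.29, against 0.62 for RGS, 0.56 for IL and 0.50 for TNFRSF at that level. Of 11 RGS genes, which switch off G proteins, 10 rose, and RGS13, an RGS protein of mast and B cells, went from 2.38 and 1.89 CPM in PBS to 8.21 and 8.23 CPM in dG.

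By gene type, of 10849 protein-coding genes, 35.2% rose and 31.8% fell. Of 1679 processed pseudogenes, 7.62% rose and 31.6% fell, and reads in them may belong to their parent genes. Of 363 lincRNAs, 31.4% rose and 20.9% fell. Of 66 sense-intronic transcripts, 33.3% rose and 4.55% fell, and of 132 transcribed unprocessed pseudogenes 37.1% rose and 6.06% fell. Whether counting used strand was not given in the sources used here, so transcripts inside or opposite another gene cannot be told apart from it.

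Long genes rose more often than short ones. Protein-coding genes with a mean of at least 4 CPM were ordered by total exon length and split into 10 bins of equal size. In the shortest bin, up to 2312 bases, 20.7% rose and 54.4% fell, with a median log2 fold change of -0.20. In the longest bin, from 10585 bases, 48.9% rose and 22.6% fell, with a median of 0.11. Replicates of 1 group also drifted with length, by less: replicate 2 minus replicate 1 ran from 0.04 to -0.04 across the bins in PBS and from -0.04 to 0.02 in dG. The median exon length of the mitochondrial import list was 3462 bases, that of the spliceosome list 3916 and that of the myosins 8959. In the bin from 3110 to 3821 bases, which spans the first of these, the median was -0.04, against -0.37 for the list. The part of length in any list was not tested.

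**Figure D5:**
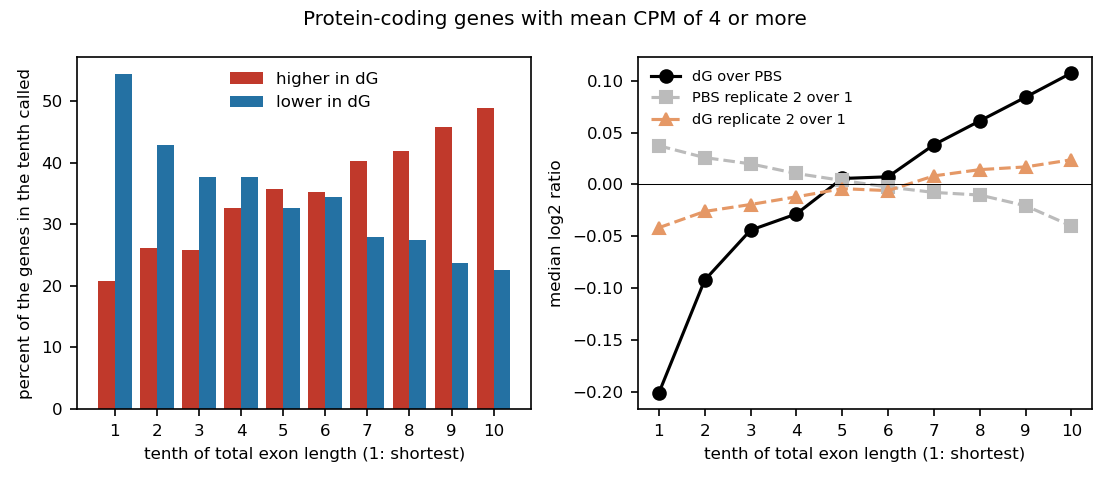
Protein-coding genes with mean CPM of 4 or more in 10 equal bins of total exon length, shortest at 1. Left, percent of each bin called higher (red) or lower (blue) in dG. Right, median log2 ratio of dG over PBS (black) and of replicate 2 over replicate 1 within PBS (grey) and within dG (orange). The black line runs from -0.20 to 0.11, while the replicate lines stay between -0.04 and 0.04.

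Promoters of 9078 of the 10849 protein-coding genes were found by symbol in RefSeq (build GRCh38.p14), each of 300 bases, 250 before and 50 after the start. Short motifs were searched on both strands. CACGTG, the palindromic E-box that MYC and MAX bind, was in 10.6% of all 9078 promoters, in 8.97% of those of genes that rose, in 12.7% of those of genes that fell, in 26 of 337 (7.72%) of those that rose at least 2-fold and in 16 of 67 (23.9%) of those that fell at least 2-fold. The NF-kB-like pattern searched let any base stand between its G run and its T run. It can match stretches that a stricter NF-kB site would exclude. This pattern was in 2.26% of all promoters and in 17 of 337 (5.04%) of those that rose and 1 of 67 (1.49%) of those that fell at least 2-fold. AGATAAG, which GATA2 and its relatives bind, was in 1.17% of all, 9 of 337 (2.67%) of those that rose and 1 of 67 (1.49%) of those that fell at least 2-fold. AAGATGGC, the YY1 core, was in 6.05% of all, 8.71% of those that fell and 3.58% of those that rose. Among at least 2-fold changes the higher share in falls was absent, with 1 of 67 (1.49%). Of those that rose at least 2-fold, 4 of 337 (1.19%) held it, a lower share than the 3.58% of all that rose. TATAAA was in 5.36% of all, in 9.79% of those that rose at least 2-fold and in 5 of 67 (7.46%) of those that fell at least 2-fold. The other 11 motifs searched included GGGCGG, the GC box, in 70.1% of all, 59.3% of those that rose and 58.2% of those that fell at least 2-fold. ACCGGAAGT, an ETS site, was in 2.40% of all, 3.32% of those that fell and 47 of the 3132 that rose. It was in 0 of 67 of those that fell and 1 of 337 of those that rose at least 2-fold. Of all promoters, 2.63% held the AP-1 site TGACTCA, 3.37% the cAMP response element TGACGTCA and 0.496% the amino acid response element TTGCATCA, which ATF4 binds. AP-1 sites were in 15 of 337 (4.45%) of those that rose and 5 of 67 (7.46%) of those that fell at least 2-fold. For the cAMP response element these were 3 of 337 (0.890%) and 3 of 67 (4.48%). The palindromic C/EBP site TTGCGCAA was in 0.22% of promoters and the NF-Y box CCAAT in 37.5%. The RUNX site TGTGGTT was in 3.08% and the core of the hypoxia response element, TACGTG, in 3.57% of promoters. RUNX sites were in 15 of 337 (4.45%) of those that rose and 0 of 67 of those that fell at least 2-fold. The NRF1 site was in 2.52% and the core of the interferon-stimulated response element in 3.03% of promoters. Motifs can overlap each other in a promoter. A match is a description of letters, and none was tested as a binding site.

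Stretches of 60 bases around a match are shown for genes with at least 4 mean CPM that changed at least 2-fold, with the match in capitals. Genes on chromosomes 8 and 18 were left out. Those shown are the steepest of the rest with the match in the 200 bases before the start. They are written 5′ to 3′ on the strand of the gene. The first 4 hold CACGTG and belong to genes that fell. The next 3 hold the NF-kB-like pattern and the last AGATAAG, in genes that rose:
UTP20, chr12:101280045-101280104, plus strand: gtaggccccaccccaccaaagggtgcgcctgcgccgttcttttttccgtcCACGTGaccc
MIPEP, chr13:23889401-23889460, minus strand: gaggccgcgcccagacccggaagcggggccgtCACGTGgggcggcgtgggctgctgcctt
CCDC86, chr11:60842053-60842112, plus strand: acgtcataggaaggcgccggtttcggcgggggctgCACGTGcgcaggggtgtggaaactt
GNPDA1, chr5:142013028-142013087, minus strand: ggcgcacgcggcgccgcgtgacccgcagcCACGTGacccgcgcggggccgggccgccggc
CPA3, chr3:148865075-148865134, plus strand: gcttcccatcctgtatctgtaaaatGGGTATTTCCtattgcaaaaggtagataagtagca
PDLIM7, chr5:177497681-177497740, minus strand: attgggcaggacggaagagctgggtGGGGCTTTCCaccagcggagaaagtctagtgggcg
SLAMF8, chr1:159826772-159826831, plus strand: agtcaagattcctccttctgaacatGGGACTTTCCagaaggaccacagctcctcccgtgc
PTGS1, chr9:122370329-122370388, plus strand: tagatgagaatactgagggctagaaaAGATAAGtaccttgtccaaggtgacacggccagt

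Of these genes, UTP20, a factor of small ribosomal subunit assembly, changed by -1.37 ± 0.04, MIPEP by -1.19 ± 0.12, CCDC86, a nucleolar protein, by -1.15 ± 0.05 and GNPDA1, a glucosamine 6-phosphate deaminase, by -1.05 ± 0.09 on the log2 scale. CPA3, the mast cell carboxypeptidase, rose by 2.46 ± 0.04, and its stretch also holds the letters of AGATAAG in lower case. The NF-kB-like match of CPA3 has T after its G run, a position that the pattern left free. SLAMF8, a receptor of the SLAM family, rose by 1.57 ± 0.15, PDLIM7 by 2.27 ± 0.14 and PTGS1 by 2.16 ± 0.07. CCDC86, GNPDA1 and SLAMF8 fall outside the rule for named genes and were chosen after their values were seen.

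Promoters were also split into 10 equal bins by their share of G and C. In the bin with the least G and C, up to 51.0%, 43.4% of genes rose and 26.3% fell. This bin held 908 of the 9078 promoters, and 73 of the 337 of genes that rose at least 2-fold. The part of base composition in the shares of motifs was not tested. In the bin with the most, from 76.7%, 43.4% rose and 21.5% fell. In the 5 bins from 51.0% to 67.7%, 29.4% to 32.3% rose.

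A search for runs of at least 3 neighbouring tested genes, all changed at least 2-fold the same way, found 1 run, on chromosome 1. SLAMF1, CD48 and LY9, receptors of the SLAM family that immune cells use to recognise each other, lie between positions 160608100 and 160828261 (hg38). CD48 was at 5.33 and 5.07 CPM in the PBS libraries and 13.3 and 11.8 CPM in the dG libraries. SLAMF1 was at 1.32 and 1.43 CPM in PBS and 6.12 and 5.27 CPM in dG and LY9 at 2.11 and 1.99 CPM in PBS and 6.99 and 7.96 CPM in dG. In all 3 genes both dG libraries lay above both PBS libraries, with log2 fold changes from 1.28 to 2.04.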

How the data were processed

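RNA-seq libraries were made from 200 ng of total RNA with the Kapa mRNA HyperPrep kit, per the labels' protocols. The submitters' processing notes name bcl2fastq 2.18.0.12, TopHat2, HTSeq 0.11.2 and the build hg38. Neither the gene annotation's release nor whether counting used strand or reads with several matches is given in the sources used here. The authors deposited whole-number read counts per gene, which were tested as they stand, and RPKM values, scaled by exon length and library size, which were used for levels per length and in an alternative.

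The 4 KG1A libraries were fitted alone with edgeR 4.0.16 in R 4.3.3 (TMM scaling, quasi-likelihood F test, two-sided, Benjamini-Hochberg adjustment, threshold 0.05), with no block. The common biological coefficient of variation was 2.46%, on 2 residual degrees of freedom, so precision rests on spread shared across genes. The SE is the fitted log2 fold change over the square root of F. DESeq2 1.42.0 and limma 3.58.1 served as alternatives, with other scalings, filters, fits and each library left out. The fit was tested on simulated counts.

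Genes were named by rule: the 15 steepest rises and falls at 4 mean CPM or more, the 10 largest gains and losses of CPM, up to 4 called members of each list, genes off in PBS, neighbouring genes, markers, and the leading member of each symbol family. The members and the 80 lists were chosen with earlier results of these data known. Lists got no test, and 1 list and some named genes are not reported here. Gene types came from GENCODE 29 and promoters from RefSeq on GRCh38.p14. U937 libraries entered only the check for traces and 1 alternative.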

Additional observations from a re-analysis of the deposited data

How the results depend on the processing

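No gene called here was called in the other direction under any alternative. Requiring a 1.2-fold change left 2322 higher and 1840 lower genes. At least 2-fold counts were 976 higher and 267 lower with no filter, 1033 and 211 with all 8 libraries fitted, and 145 and 21 on RPKM with a pseudocount of 1, which shrinks changes of low genes by construction. With edgeR's own filter 228 genes were at least 2-fold lower. The DESeq2 Wald test called 3493 higher and 3208 lower. With 8 libraries, scaled over both lines, 60.2% of called genes were higher, against 50.5%. Leaving out 1 library, where the lone library of a group is assumed to vary like the other group, gave 3626 to 4159 higher, 3441 to 4036 lower, 587 to 618 at least 2-fold higher and 134 to 173 at least 2-fold lower. Of the 160 list counts, 121 moved by over 1.5 times when a 1.2-fold change was required, 15 with the DESeq2 Wald test and 15 with 8 libraries. The median of 6 lists changed sign under at least 1 alternative, and none of these exceeded 0.05 in size in the report's fit.

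Replicate numbers are shared between groups, but no label pairs them, and same-numbered libraries deviated with a correlation of -0.17 over 11246 genes. With a replicate block, 4225 genes were higher and 4109 lower, 576 and 130 of them at least 2-fold. The crossed pairing, chosen after seeing the data, gave 4670 higher and 4679 lower, 574 and 130 at least 2-fold.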
